A study of Homo sapiens with 24 samples.

Results

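Interferon ligands and their receptor chains were followed across 24 poly(A)-selected, stranded RNA-seq libraries of 2 transfected human cell lines. The set held 10 of the 60236 genes counted, taken by symbol: 4 ligands (IFNB1, IFNL1, IFNL2 and IFNL3) and 6 receptor chains (IFNAR1, IFNAR2, IFNLR1, IL10RB, IFNGR1 and IFNGR2). HEK293T, a line derived from human embryonic kidney, and A549, an epithelial line from a lung adenocarcinoma, were each given 1 of 4 plasmids with Lipofectamine 3000 and collected after 48 h, in 3 replicates per plasmid. The snaR-A plasmid expressed the small non-coding RNA snaR-A from a U6 promoter, the scramble plasmid a shuffled snaR-A sequence from the same promoter, and the SF3B2 and eGFP plasmids a flag-tagged splicing factor of the U2 snRNP or a flag-tagged fluorescent protein from pcDNA vectors. Scramble was the control for snaR-A and eGFP the control for SF3B2. A comparison of eGFP or SF3B2 with scramble therefore set different vectors, promoters and inserts side by side, which cannot be told apart, and every library came from cells that had taken lipid and plasmid DNA, with no untransfected cells analysed here. The study's methods describe the replicates of its genomic experiments as biological and handled on the same day, and the labels do not name separate cultures, so the p-values measure the spread between libraries processed together.

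Interferons are secreted proteins that cells release on sensing foreign nucleic acid, and they are grouped by the receptor they bind. Interferon beta (IFNB1) is a type I interferon and binds a pair of chains, IFNAR1 and IFNAR2. The lambda interferons (IFNL1, IFNL2 and IFNL3) are type III and bind IFNLR1 together with IL10RB, a chain that also serves the interleukin-10 family, and act mainly on epithelia. IFNGR1 and IFNGR2 form the receptor of interferon gamma, the type II interferon, which is made by lymphocytes. Ligand genes are silent in most resting cells and are switched on by IRF3, IRF7 and NF-kappa-B downstream of the RNA sensors RIGI and IFIH1 and of the DNA sensor CGAS, whereas most receptor chains are made constitutively. All of these receptors signal through JAK kinases and STAT factors, and types I and III converge on the same target genes.

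The promoter windows of the ligands are shown because the 4 ligands moved together in A549 cells. The sequences are RefSeq's for GRCh38.p14 and end at the base before the start site, written in the direction of transcription. Capitals mark 2 motifs, each searched on both strands. One is GAAANNGAAA, the core of the element that interferon regulatory factors bind, which appears as runs of TTTC where it lies on the other strand, and the other is the NF-kappa-B consensus. The IFNB1 line covers the last 150 bases, chr9:21077943-21078092 on the minus strand, and its capitals are an NF-kappa-B match at positions -66 to -57, with position -1 the base before the start. The IFNL1 line covers 250 bases, chr19:39296157-39296406 on the plus strand, with overlapping GAAANNGAAA matches at -214 to -205 and -208 to -199. The IFNL2 line covers 250 bases, chr19:39268146-39268395 on the plus strand, with a GAAANNGAAA match at -176 to -167 and an NF-kappa-B match at -110 to -101.
IFNB1: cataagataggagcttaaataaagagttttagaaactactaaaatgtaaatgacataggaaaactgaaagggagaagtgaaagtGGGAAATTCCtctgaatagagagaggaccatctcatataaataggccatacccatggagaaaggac
IFNL1: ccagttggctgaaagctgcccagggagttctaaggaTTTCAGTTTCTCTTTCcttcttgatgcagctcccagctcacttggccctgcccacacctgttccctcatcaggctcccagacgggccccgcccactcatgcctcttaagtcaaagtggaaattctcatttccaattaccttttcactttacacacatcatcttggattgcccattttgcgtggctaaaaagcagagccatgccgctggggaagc
IFNL2: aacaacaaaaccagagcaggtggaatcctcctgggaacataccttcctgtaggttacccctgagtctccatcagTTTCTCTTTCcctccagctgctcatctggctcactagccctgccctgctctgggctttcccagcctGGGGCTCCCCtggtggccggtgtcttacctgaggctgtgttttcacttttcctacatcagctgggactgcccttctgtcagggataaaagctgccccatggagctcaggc
The IFNL3 window, chr19:39245251-39245500 on the minus strand, was identical to that of IFNL2 at 249 of 250 bases and held the same motifs at the same positions. The IFNL1 window was identical to that of IFNL2 at 70 of 250 positions without alignment. Of 35116 windows of 250 bases over all genes, 3.02% held GAAANNGAAA, 9.96% held the NF-kappa-B consensus and 0.202% held both. Among the receptor genes, 5 of which had a window in the table used, IFNGR2 held NF-kappa-B matches at 3 places and the windows of IFNAR1, IFNLR1, IL10RB and IFNGR1 held neither motif. A match is only a run of letters in these windows, and a window without one can hold similar letters at other spacings. The IFNB1 window, for example, holds gaaaactgaaa, which the search does not take.

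The positions of the genes bear on how their reads could be counted. In GENCODE 44 on GRCh38, IFNB1 is a single exon of 839 bases at chr9:21077104-21077942, and IFNL1 (chr19:39296407-39298673), IFNL2 (chr19:39268396-39270188) and IFNL3 (chr19:39243455-39245250) lie close together on chromosome 19. IFNAR2 (chr21:33205282-33265675), IL10RB (chr21:33266367-33311420), IFNAR1 (chr21:33324387-33359864) and IFNGR2 (chr21:33403413-33479348) are neighbours on the plus strand of chromosome 21. IFNLR1 is at chr1:24154168-24187959 and IFNGR1 at chr6:137197483-137219449. Of the 31-base words in IFNL2 transcripts, 56.4% were shared with IFNL3, and 54.2% of those of IFNL3 with IFNL2, so reads could be split between them and their separate levels are uncertain. The readthrough gene IFNAR2-IL10RB shared 14.3% of the words of IFNAR2 and 21.0% of those of IL10RB.

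Libraries held 195186194 to 260878268 estimated counts, and a gene with no read could still stand at up to 3 counts, a bound of 0.00968 to 0.0165 CPM across libraries, where CPM is the count over its library's TMM-scaled total in millionths, and one that covers counting error only. SF3B2 mRNA stood at 45210 to 48710 CPM in A549 and 24020 to 37690 CPM in HEK293T cells given its plasmid. A549 scramble replicate 3 also held 8743 CPM of SF3B2, against 369.6 and 341 CPM in the other A549 scramble libraries. HEK293T eGFP replicate 3 carried the summed A549 markers at 3.84% of their A549 level, with AKR1B10 at 99.7 CPM, and HEK293T SF3B2 replicate 3 at 0.391% with AKR1B10 at 4.76 CPM, whereas the other 10 HEK293T libraries lay at 0.252 to 0.367%. All 8 A549 markers were higher in A549, and 6 of 8 HEK293T markers in HEK293T, the exceptions being CRABP1 and DPPA4. A549 snaR-A replicate 3 is labelled HEK293T in some fields, and its A549 marker level lay within the A549 range.

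All 4 ligands were detected in every A549 library, and all were highest in cells given eGFP. IFNB1, the type I ligand, stood at 0.0475, 0.121 and 0.183 CPM in scramble replicates 1 to 3, at 0.147, 0.147 and 0.0887 CPM in snaR-A, at 0.236, 0.445 and 0.217 CPM in SF3B2 and at 1.30, 1.52 and 1.08 CPM in eGFP libraries. The scramble and snaR-A libraries overlapped, and the SF3B2 and eGFP libraries each stood above the group before them. These levels rested on 9, 26 and 36 reads in scramble and on 277, 326 and 200 reads in eGFP libraries. IFNL1, the lambda interferon with the least shared sequence, stood at 0.0738, 0.0933 and 0.117 CPM in scramble, at 0.200, 0.151 and 0.173 CPM in snaR-A, at 0.280, 0.316 and 0.228 CPM in SF3B2 and at 1.27, 1.06 and 1.37 CPM in eGFP. None of its 4 groups overlapped another.

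IFNL2 and IFNL3, the near-identical lambda pair, took the highest eGFP levels but also spread most between libraries. IFNL2 stood at 0.0158, 0.0886 and 0.183 CPM in scramble, at 0.191, 0.174 and 0.148 CPM in snaR-A, at 0.269, 0.622 and 0.380 CPM in SF3B2 and at 2.50, 2.25 and 1.38 CPM in eGFP. Scramble and snaR-A overlapped, and scramble replicate 1 rested on 3 reads. IFNL3 stood at 0.0316, 0.159 and 0.198 CPM in scramble, at 0.231, 0.252 and 0.247 CPM in snaR-A, at 0.346, 0.637 and 0.494 CPM in SF3B2 and at 1.98, 2.39 and 1.35 CPM in eGFP. Its 4 groups did not overlap, and both genes were lowest among eGFP libraries in replicate 3. Summed over the ligands per kilobase of the canonical transcript, the level was 0.213, 0.582 and 0.840 CPM per kb in scramble, 0.959, 0.910 and 0.832 in snaR-A, 1.41, 2.49 and 1.65 in SF3B2 and 8.62, 8.91 and 6.40 in eGFP. In the eGFP libraries the shares of this sum were 33.4% ± 4.16 for IFNL3, 26.5% ± 3.97 for IFNL2, 20.6% ± 6.27 for IFNL1 and 19.5% ± 1.34 for IFNB1 (SD, n = 3), so no single ligand made up most of it.

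**Figure D1:**
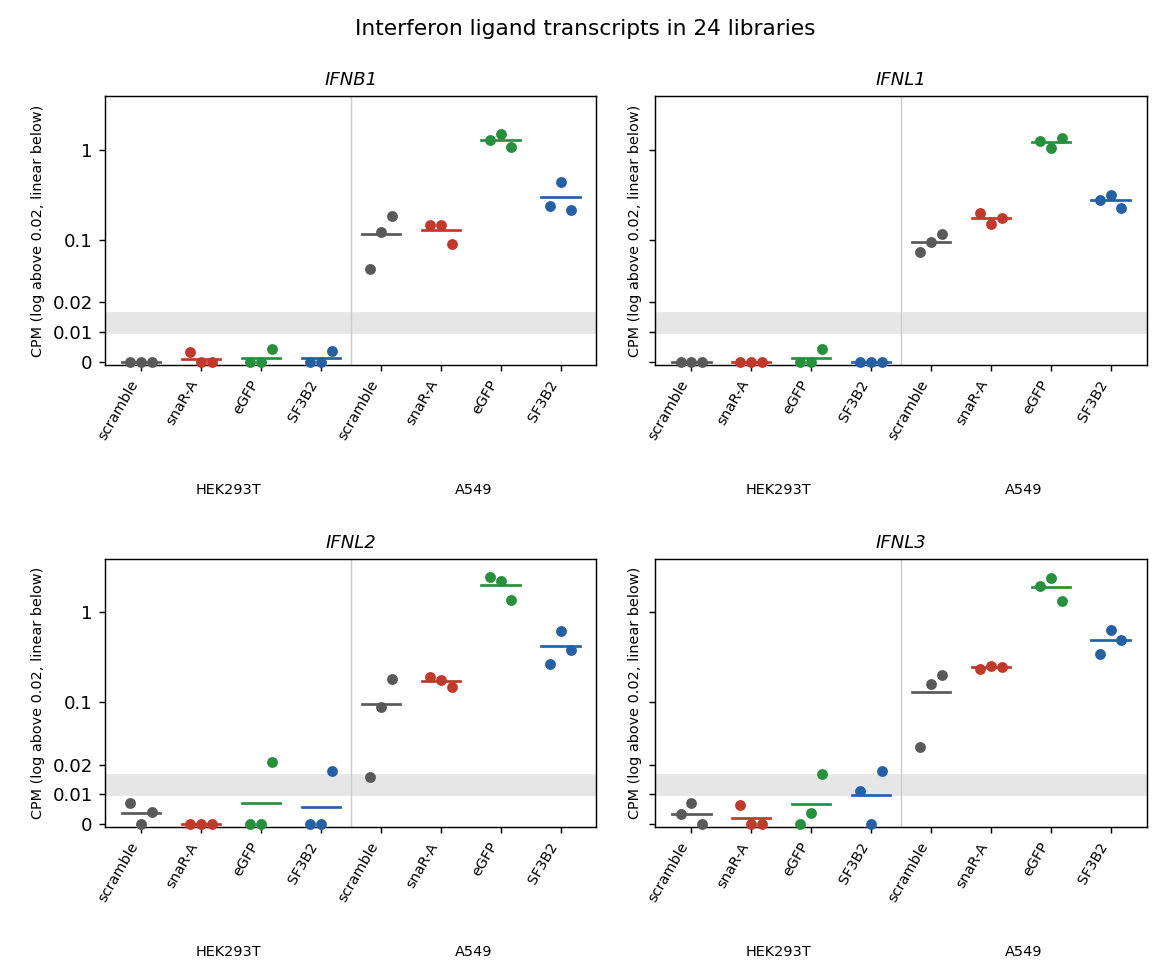
CPM of IFNB1, IFNL1, IFNL2 and IFNL3 in each of the 24 libraries by cell line and plasmid, on an axis that is logarithmic above 0.02 CPM and linear below. Points are libraries, bars are group means and the grey band is the level of 3 counts per library. In A549 the eGFP libraries sit between 1.06 and 2.50 CPM, above all others, and the HEK293T libraries sit below or near the band.

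The comparison of eGFP with scramble in A549 sets the control plasmid for SF3B2 beside the control plasmid for snaR-A. All 4 ligands rose, and no receptor chain was called. IFNB1 went from 0.117 ± 0.0677 to 1.30 ± 0.219 CPM (SD, n = 3), 11.1-fold, a log2 fold change of 3.47 (SE 0.41, adjusted p = 0.00596 in edgeR's quasi-likelihood test with Benjamini-Hochberg adjustment over all genes tested). IFNL1 went from 0.0946 ± 0.0215 to 1.23 ± 0.159 CPM, 13.0-fold or 3.70 on the log2 scale (SE 0.216, edgeR adjusted p = 0.000143). IFNL2 went from 0.0957 ± 0.0837 to 2.04 ± 0.590 CPM, 21.2-fold (edgeR adjusted p = 0.0173), and IFNL3 from 0.129 ± 0.0869 to 1.91 ± 0.527 CPM, 14.7-fold (edgeR adjusted p = 0.0146). So 4 of the 10 genes were called higher and 0 lower, where 1.46% of all genes tested were higher and 0.0324% lower. IFNB1, IFNL2 and IFNL3 had 9, 3 and 6 reads in scramble replicate 1, so their place among the genes tested rested mainly on the eGFP libraries. With at least 10 counts required in every library, IFNL1 alone of the 4 ligands was tested, and it stayed called. The 4 ligands kept the same direction and their calls without A549 scramble replicate 3, with log2 fold changes of 3.93, 3.87, 5.25 and 4.30 for IFNB1, IFNL1, IFNL2 and IFNL3. The IFNL2 and IFNL3 calls were lost without eGFP replicate 1 (edgeR adjusted p = 0.0775 and 0.0668), without eGFP replicate 2 (0.0820 and 0.0737) and without scramble replicate 2 (0.132 and 0.0921), and in the last case that of IFNB1 was lost too (0.0544).

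SF3B2 against eGFP, the pair that shares a vector, gave lower ligands in A549 cells overexpressing SF3B2. All 4 fell, with a log2 fold change of -2.11 for IFNB1 (SE 0.287, edgeR adjusted p = 0.00856), -2.15 for IFNL1 (SE 0.168, 0.000752), -2.26 for IFNL2 (SE 0.345, 0.0129) and -1.94 for IFNL3 (SE 0.282, 0.0106). These are levels 4.31-, 4.45-, 4.78- and 3.85-fold lower. IFNGR1, a chain of the interferon gamma receptor, also fell, with -0.19 (SE 0.0350, edgeR adjusted p = 0.0260), from 64.8, 65.6 and 62.9 CPM in eGFP to 55.9, 56.1 and 57.0 CPM in SF3B2. Its call was lost in 5 of the 6 fits that left out a single library (edgeR adjusted p = 0.0769 to 0.126) and was kept without eGFP replicate 3. The count was 5 of 10 genes lower and 0 higher, beside 3.6% and 3.42% of all genes tested. It lay between 2 and 6 when single libraries were left out, at 2 without SF3B2 replicate 1 or 3, at 3 without eGFP replicate 2 and at 6 without eGFP replicate 3. The IFNL2 call was lost without eGFP replicate 2 (edgeR adjusted p = 0.0546) and without SF3B2 replicate 1 (0.0512) or 3 (0.0733). That of IFNB1 was lost without SF3B2 replicate 1 (0.0509) and that of IFNL3 without SF3B2 replicate 3 (0.0602). IFNL1 stayed called under all 14 alternatives.

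Against scramble, the same SF3B2 libraries carried more ligand reads, but the difference did not pass the test over all libraries. The log2 fold changes were 1.36 for IFNB1 (edgeR adjusted p = 0.374), 1.54 for IFNL1 (0.113), 2.15 for IFNL2 (0.374) and 1.93 for IFNL3 (0.369). In all 4, every SF3B2 library stood above every scramble library, and for IFNAR1 every SF3B2 library lay below. No share of all genes that stood apart in this way is given here. By edgeR, 0 of 10 were called, where 0.214% of all genes were called higher and 0.0186% lower. At an unadjusted p under 0.05 there were 5, and DESeq2 and edgeR's exactTest called 1 each, IFNL3 and IFNL1. Without A549 scramble replicate 3, the library with SF3B2 reads, 5 were called in edgeR: IFNB1 higher by 1.81 (adjusted p = 0.0466), IFNL1 by 1.71 (0.0100), IFNL2 by 2.98 (0.0226) and IFNL3 by 2.35 (0.0345), and IFNAR1 lower, by a log2 of -0.20 (0.0112). In that fit 10.9% of all genes tested were called higher and 11.04% lower. Scramble replicate 3 had the highest level of each ligand among the scramble libraries. In scramble replicate 1 IFNB1, IFNL2 and IFNL3 had 9, 3 and 6 reads. Their place among the genes tested therefore rested mainly on the SF3B2 libraries.

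snaR-A against scramble, the comparison of the small RNA with its own control, gave 0 of 10 genes called in A549 by edgeR, DESeq2 or exactTest, with IFNL1 alone at an unadjusted p under 0.05. Over all genes tested 0.00923% were called higher and 0.00923% lower. The log2 fold changes of the ligands were 0.11 for IFNB1 (SE 0.469), 0.87 for IFNL1 (SE 0.268), 0.83 for IFNL2 (SE 0.629) and 0.90 for IFNL3 (SE 0.518), with edgeR adjusted p between 0.794 and 0.978. Without A549 scramble replicate 3 they were 0.58, 1.05, 1.67 and 1.33, with edgeR adjusted p between 0.122 and 0.547. IFNL1 and IFNL3 did not overlap between the groups, and IFNB1 and IFNL2 did. The 3 comparisons against scramble share the same scramble libraries.

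**Figure D2:**
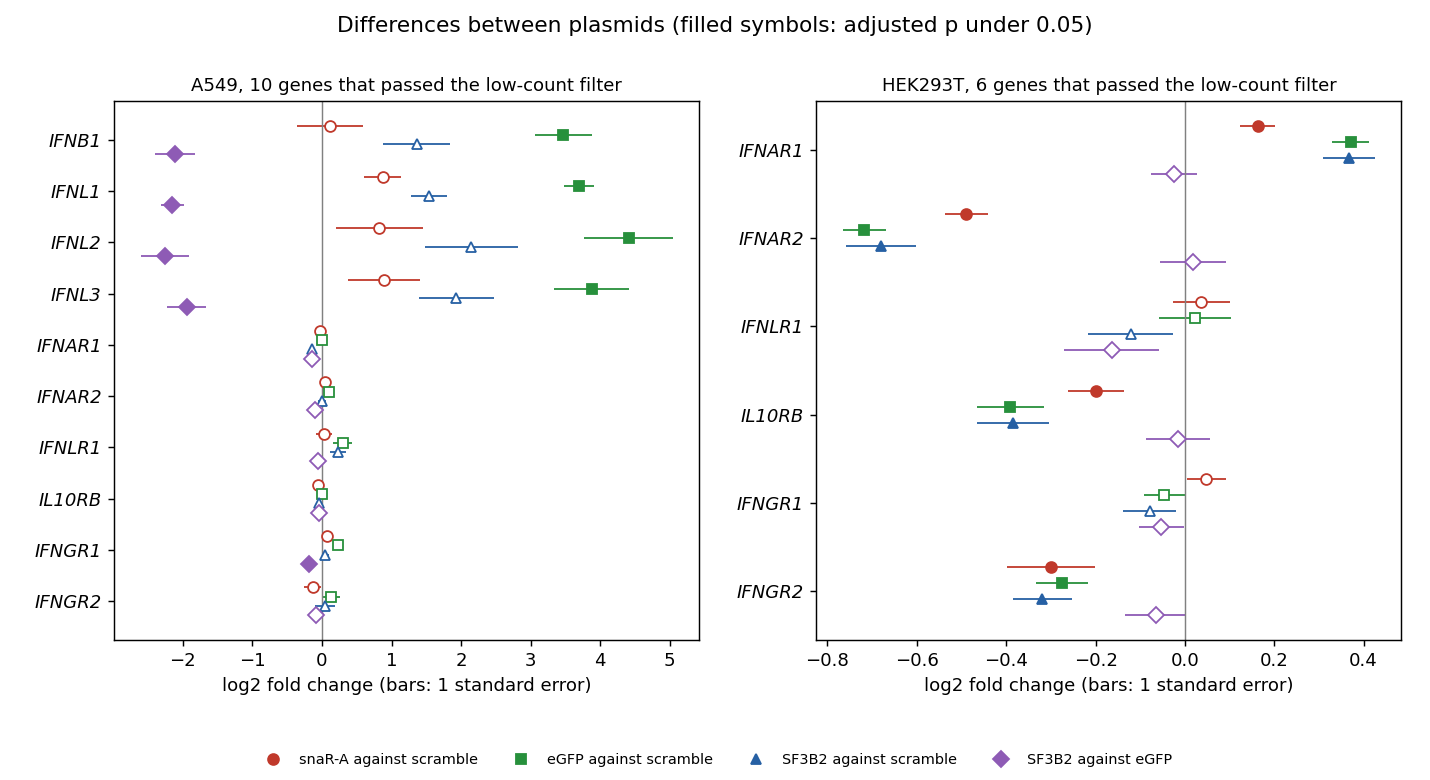
Log2 fold change (horizontal axis) of the 10 genes in A549 (left) and of the 6 receptor chains in HEK293T (right), with bars of 1 SE from edgeR. Colour and shape give the comparison, and filled symbols have an adjusted p under 0.05. In A549 the ligands lie far from 0 for eGFP against scramble and on the opposite side for SF3B2 against eGFP, whereas the receptor chains lie close to 0.

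In HEK293T the ligands were at or near the limit of detection with every plasmid. IFNB1 had 1 read in each of snaR-A replicate 1, eGFP replicate 3 and SF3B2 replicate 3, and 0 in the other 9 libraries. IFNL1 had a single read over all 12 libraries, in eGFP replicate 3. IFNL2 had 2 and 1 reads in scramble replicates 1 and 3, 0 in all snaR-A libraries, and 5 in replicate 3 of eGFP and of SF3B2. IFNL3 had 18 reads in all, spread over 7 libraries, at most 5 in 1 library. Where a group had no read, 3 counts over its 3 libraries allow a level of up to 0.00370 CPM for IFNB1 and IFNL1 in scramble, 0.00344 CPM for IFNL1 and IFNL2 in snaR-A and 0.00392 CPM for IFNL1 in SF3B2. None of the 4 passed the low-count filter in any HEK293T comparison, and exact two-sided permutation tests on their CPM gave p between 0.4 and 1.0, where 0.1 is the smallest possible. Differences between plasmids in ligand mRNA were therefore not detectable at this depth in HEK293T. The reads of IFNB1, IFNL1 and IFNL2 in the eGFP and SF3B2 groups all fell in replicate 3, the libraries with the highest A549 marker levels, and their part in these reads was not tested.

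Between the lines, each ligand was higher in A549 for every plasmid, by reads summed over each group of 3 libraries. IFNB1 was at least 31.96-fold higher with scramble, where HEK293T had no read, and 1003-fold higher with eGFP (95% exact counting interval 179.5 to 39660). IFNL1 was at least 25.7-fold higher with scramble, at least 50.9-fold with snaR-A and at least 70.5-fold with SF3B2, the bounds being set against 3 counts over the group. IFNL2 was 26.1-fold higher with scramble (8.50 to 130.3) and 317-fold with eGFP (135.5 to 978), and IFNL3 35.6-fold (11.7 to 176) and 296-fold (126.5 to 913). The intervals are wide because the HEK293T counts are few, and they cover counting error only, leaving out the spread between libraries. The HEK293T eGFP reads of IFNB1 and IFNL2 all came from replicate 3, the library that also carried A549 markers. For IFNL2 the ranges touched, since A549 scramble replicate 1 at 0.0158 CPM lay below the highest HEK293T eGFP library.

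The receptor chains were expressed in all 24 libraries, and all but IFNLR1 stood above the ligands in each group. Per kilobase of the canonical transcript and averaged over 12 libraries, the order in HEK293T was IFNGR1 at 30.4 CPM per kb, IFNGR2 at 9.02, IL10RB at 8.27, IFNAR2 at 6.87, IFNAR1 at 6.70 and IFNLR1, the chain private to lambda interferons, at 2.09. In A549 it was IFNGR1 at 28.2, IL10RB at 15.3, IFNGR2 at 9.99, IFNAR1 at 9.65, IFNAR2 at 9.20 and IFNLR1 at 0.726. IFNGR1 was the highest and IFNLR1 the lowest in both lines. Against the ligands, IFNLR1 in A549 averaged 0.657 CPM per kb with scramble, where the ligands averaged 0.101 to 0.183, and 0.804 with eGFP, where they averaged 1.55 to 2.69.

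In HEK293T the scramble libraries stood apart from the other 3 plasmids in 4 of 6 receptor chains. In the comparisons against scramble 16.8 to 22.9% of all genes tested were called higher and 17.5 to 25.8% lower, so a difference from scramble was common over all genes. IFNAR1 was at 35.0, 34.1 and 35.7 CPM in scramble, 38.0, 39.4 and 39.1 in snaR-A, 44.7, 43.7 and 45.9 in eGFP and 42.7, 44.8 and 45.8 in SF3B2. IFNAR2, its partner chain, moved the other way, from 38.0, 40.3 and 36.6 CPM in scramble to 28.2, 26.2 and 26.9 in snaR-A, 22.6, 23.1 and 23.5 in eGFP and 21.4, 24.8 and 24.5 in SF3B2. The eGFP and SF3B2 libraries overlapped for both chains, and the snaR-A libraries lay between these and scramble. IL10RB stood at 19.5, 20.4 and 17.2 CPM in scramble, 16.3, 16.4 and 16.7 in snaR-A, 13.7, 14.9 and 14.6 in eGFP and 15.0, 14.3 and 13.8 in SF3B2. IFNGR2 stood at 18.7, 17.7 and 17.5 CPM in scramble, 12.1, 15.0 and 16.3 in snaR-A, 14.5, 15.3 and 14.3 in eGFP and 14.7, 14.3 and 13.6 in SF3B2. For both, every scramble library was above every other.

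**Figure D3:**
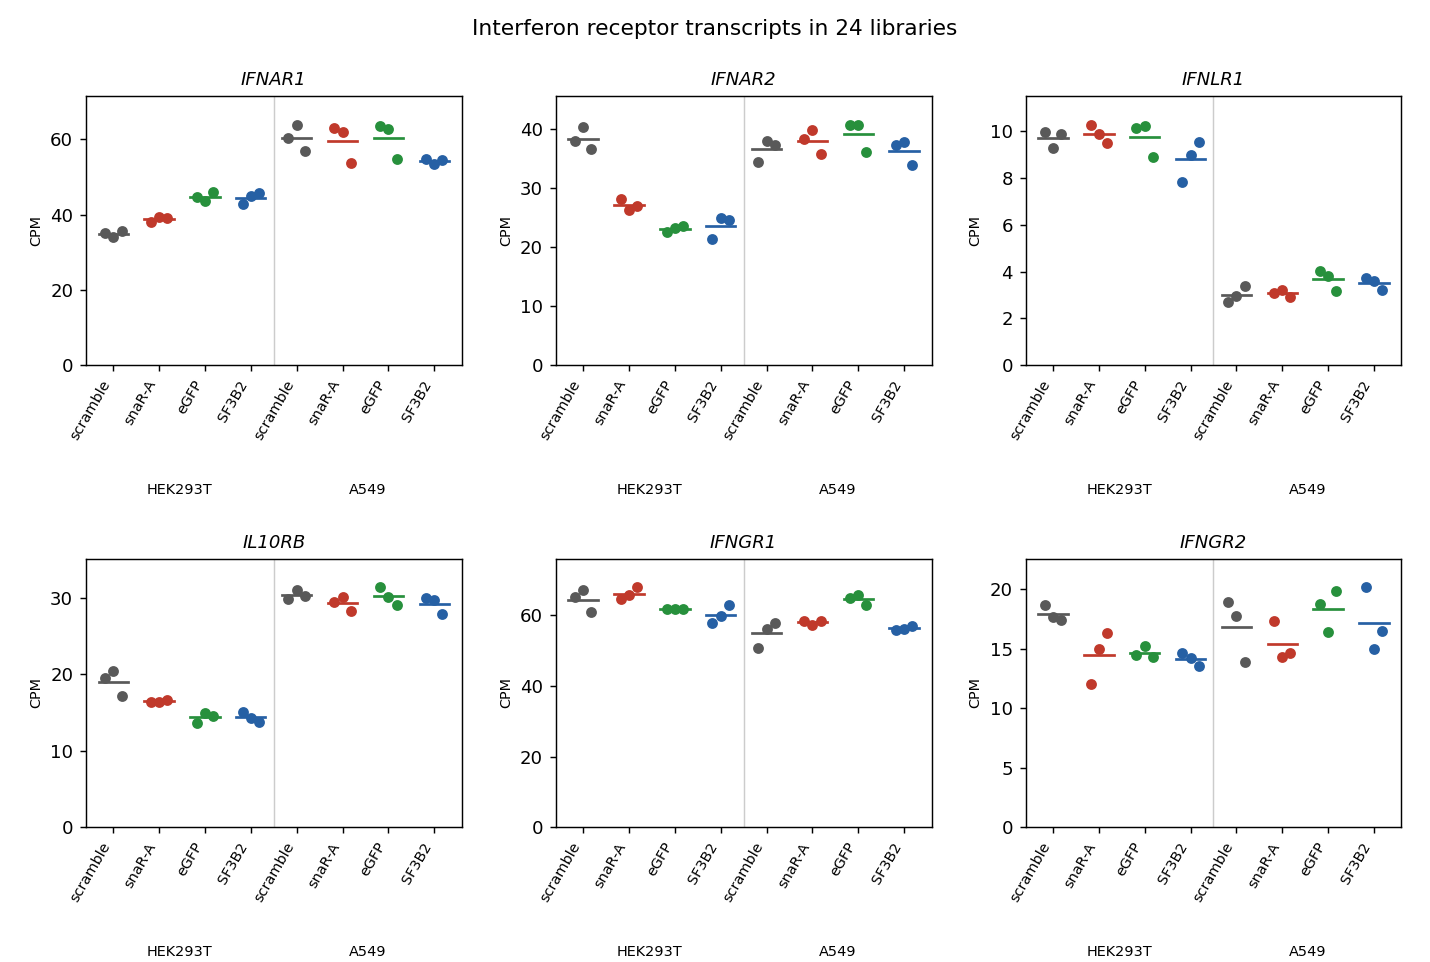
CPM of the 6 receptor chains in each library by cell line and plasmid, on linear axes that start at 0. Points are libraries and bars are group means. In HEK293T the scramble libraries are lowest for IFNAR1 and highest for IFNAR2, IL10RB and IFNGR2, whereas the A549 groups lie close together.

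By test, eGFP against scramble in HEK293T gave IFNAR1 higher by 0.37 on the log2 scale (SE 0.0415, edgeR adjusted p = 0.000439), 1.29-fold. IFNAR2 at -0.72 (SE 0.0478, 9.85e-05), IL10RB at -0.39 (SE 0.0758, 0.00437) and IFNGR2 at -0.27 (SE 0.0578, 0.00625) fell, each with its edgeR adjusted p, and IFNAR2 was 1.64-fold lower. That is 1 of 6 higher and 3 of 6 lower, where 22.9% of all genes tested were higher and 25.8% lower. Without HEK293T eGFP replicate 3, the library with A549 markers, the same 4 stayed past the threshold, at 0.36, -0.73, -0.40 and -0.25. Scaling by total counts alone moved the median of all genes by 0.11 and took IFNGR2 to -0.17 without a call (edgeR adjusted p = 0.0610).

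SF3B2 against scramble gave the same split in HEK293T, with IFNAR1 higher by 0.37 (edgeR adjusted p = 0.00384), IFNAR2 lower by a log2 of -0.68 (0.00146), IL10RB of -0.39 (0.0101) and IFNGR2 of -0.32 (0.0100). Over all genes 16.8% were called higher and 17.5% lower. The count of 4 dropped to 2 without scramble replicate 1. Without HEK293T SF3B2 replicate 3 it was 4. snaR-A against scramble also called 1 higher and 3 lower, beside 17.8% and 18.5% of all genes, with smaller values for the type I chains: IFNAR1 0.16 (edgeR adjusted p = 0.0123), IFNAR2 -0.49 (0.000425), IL10RB -0.20 (0.0363) and IFNGR2 -0.30 (0.0425). Of these, IFNAR2, 1.40-fold lower, was called under all 14 alternatives, and the count was 1 without scramble replicate 1 or snaR-A replicate 2 and 2 without scramble replicate 2 or snaR-A replicate 3. The 3 comparisons share the scramble libraries. IFNLR1, at 7.85 to 10.3 CPM in HEK293T, and IFNGR1 were called in none of them.

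SF3B2 against eGFP in HEK293T called 0 of 6 receptor chains, with 0 at an unadjusted p under 0.05 in edgeR and 0 called by DESeq2 or exactTest. Over all genes, 0.0398% were called higher and 0.133% lower. The log2 differences ran from -0.16 for IFNLR1 to 0.02 for IFNAR2. The sum of the HEK293T markers was also set apart in scramble, at 706 to 768 CPM, against 476 to 519, 425 to 436 and 458 to 583 CPM in snaR-A, eGFP and SF3B2 libraries. Not every marker fell: of 7 tested, 3, 3 and 2 were called lower than scramble with these plasmids, and 0 higher. Over all genes 18.5%, 25.8% and 17.5% were lower. The median log2 fold changes of the markers were -0.13, -0.12 and 0.06 with snaR-A, eGFP and SF3B2. Those of all genes were -0.0072, -0.0103 and -0.0065. The part of the markers in the receptor result was not tested, and fewer cells of a kind and less RNA per cell cannot be told apart in bulk RNA.

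Ratios of receptor chain counts within each library are free of scaling between libraries. The ratio of IFNAR2 to IFNAR1 counts was 1.09, 1.18 and 1.03 in HEK293T scramble libraries, and averaged 0.698 ± 0.0398 in snaR-A, 0.516 ± 0.0125 in eGFP and 0.530 ± 0.0274 in SF3B2 (SD, n = 3). No library of the other plasmids reached the scramble range, with p = 0.1 in exact two-sided permutation tests, the smallest that 3 against 3 allows. In A549 the group means were 0.608 in scramble, 0.639 in snaR-A, 0.649 in eGFP and 0.670 in SF3B2. IL10RB to IFNAR1, chains of different receptors, went from 0.546 in HEK293T scramble to 0.424, 0.322 and 0.324 in snaR-A, eGFP and SF3B2. It lay between 0.494 and 0.539 in the A549 groups. For the interferon gamma receptor, IFNGR2 to IFNGR1 went from 0.279 to 0.219, 0.238 and 0.237, and lay between 0.266 and 0.310 in A549. For the lambda receptor, IFNLR1 to IL10RB averaged 0.514 in HEK293T scramble and 0.601, 0.681 and 0.615 in snaR-A, eGFP and SF3B2. Its snaR-A and SF3B2 libraries overlapped those of scramble, and its eGFP libraries did not.

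**Figure D4:**
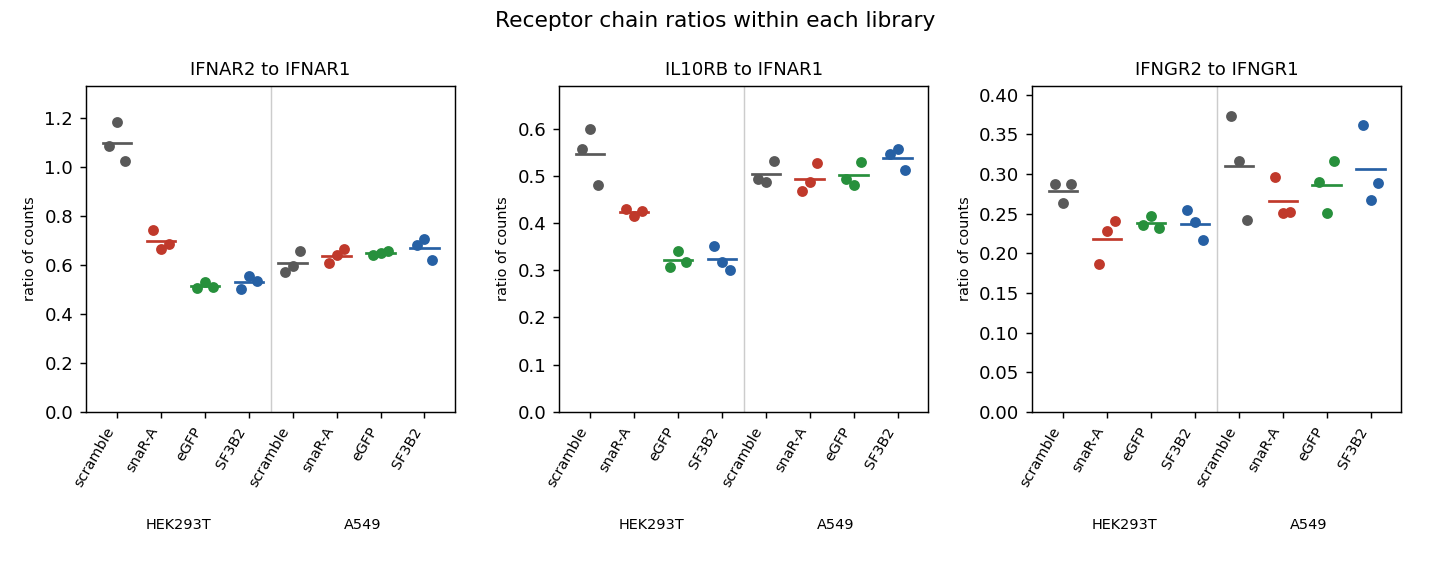
Ratio of counts of IFNAR2 to IFNAR1, IL10RB to IFNAR1 and IFNGR2 to IFNGR1 in each library by cell line and plasmid, with bars for group means. In HEK293T the IFNAR2 to IFNAR1 ratio is above 1 in the scramble libraries and between 0.516 and 0.698 on average with the other plasmids.

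The readthrough gene IFNAR2-IL10RB was not called where IFNAR2 and IL10RB were. Its HEK293T group means were 1.33, 1.31, 1.30 and 1.29 CPM in scramble, snaR-A, eGFP and SF3B2, and its log2 fold changes against scramble were -0.01 with eGFP (edgeR adjusted p = 0.972), -0.01 with snaR-A and -0.02 with SF3B2. Its level is a small part of that of IFNAR2, whose reads it partly shares.

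In A549 IFNAR1 ran from 53.4 to 63.8 CPM over the 12 libraries, IFNAR2 from 33.9 to 40.7 and IL10RB from 27.9 to 31.4. IFNGR2 ran from 13.9 to 20.2 CPM and IFNLR1 from 2.70 to 4.03. None of the 6 receptor chains was called against scramble with any plasmid. IFNGR1 stood at 50.8, 56.2 and 57.7 CPM in scramble, 58.5, 57.3 and 58.3 in snaR-A and above both in eGFP, where the log2 fold change of 0.24 had an edgeR adjusted p of 0.199 (DESeq2 called it, adjusted p = 0.0284).

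The plasmid effects were compared between the lines by an interaction term, the A549 effect minus the HEK293T effect, in edgeR. For eGFP against scramble 5 receptor chains differed: IFNAR2 by 0.88 (SE 0.0897, adjusted p = 0.000107), IFNGR2 by 0.47 (SE 0.151, 0.0425), IL10RB by 0.45 (SE 0.0979, 0.00678), IFNGR1 by 0.35 (SE 0.0764, 0.00737) and IFNAR1 by -0.30 (SE 0.0905, 0.0306). That is 4 of the 6 receptor chains with a higher and 1 with a lower effect in A549, beside 15.6% and 10.8% of all genes. For snaR-A against scramble IFNAR2 alone differed, by 0.52 (SE 0.0758, edgeR adjusted p = 0.00236), beside 4.79% higher and 6.64% lower over all genes. For SF3B2 against eGFP 0 of the 6 receptor chains differed in edgeR, beside 2.58% and 3.52%. With the ligands included, 2 genes stood at an unadjusted p under 0.05 and 2 were called by DESeq2, IFNL3 and IFNGR1. Without HEK293T eGFP replicate 3 the eGFP terms of IFNAR1 and IFNGR2 no longer passed (edgeR adjusted p = 0.0628 for each). Scaled by total counts alone, those of IL10RB, IFNGR1 and IFNGR2 did not pass (edgeR adjusted p = 0.0505, 0.156 and 0.0837). Within a single line, edgeR called IFNGR1 for eGFP against scramble in neither HEK293T (adjusted p = 0.435) nor A549 (0.199). The ligand terms did not pass for any plasmid, and with HEK293T counts at or near 0 they say nothing of the size of the difference.

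Over all plasmids, 4 of the 6 receptor chains were higher and 2 lower in A549 than in HEK293T, where 42.8% of all genes tested were higher and 43.0% lower. The 4 ligands entered this fit only through the A549 libraries and are left out of the count. The chains of the lambda receptor went opposite ways: IL10RB was higher by 0.91 on the log2 scale (SE 0.0274, edgeR adjusted p = 2.43e-17), and IFNLR1 fell by 1.52 (SE 0.0518, 1.91e-16), 2.87-fold. The ratio of IFNLR1 to IL10RB counts was 0.514 to 0.681 over the HEK293T groups and 0.0989 to 0.122 over those of A549. IFNAR1 was higher by 0.54 (edgeR adjusted p = 6.75e-13), and IFNGR1 was lower at -0.10 (0.000232). IFNAR2 at 0.46 and IFNGR2 at 0.16 were called higher, but both turned to the other direction when libraries were scaled by total counts alone, to -0.0042 and -0.31, and when only scramble libraries were compared, to -0.11 and -0.13. Scaling by total counts alone moved the median of all genes by -0.46 in this comparison, took IFNAR1 to 0.07 without a call (edgeR adjusted p = 0.0556) and IFNGR1 to -0.57.

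The rest of the pathway was read from lists of genes that detect nucleic acid and induce interferon, carry the signal, restrain it, or answer to it. In A549 with eGFP against scramble, 1.46% of all genes tested were called higher. Of the interferon target genes 22 of 22 rose, with a median log2 fold change of 3.31 beside -0.0104 over all genes. They included IFI27 at 4.54, IFITM1, a restriction factor of viral entry, at 4.21 and XAF1 at 4.03. Of 18 induction genes tested, 8 rose, among them the RNA sensors IFIH1 at 2.95 (edgeR adjusted p = 0.000108), RIGI at 2.69 (0.000407) and TLR3 at 2.76. Of 6 transducers 2 rose, among them STAT2 at 2.01, and of 9 negative regulators 3 rose, among them ISG15 at 3.06 and USP18, which restrains signalling at IFNAR2, at 2.46. IL22RA1, a receptor chain of the same cytokine receptor class, rose by 1.01, as 1 of 5 such chains tested.

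SF3B2 against eGFP in A549 gave 22 of 22 targets lower, with a median of -2.21, and 8 of 18 induction genes, 3 of 6 transducers and 3 of 9 negative regulators lower, with none higher. XAF1 at -2.96, OAS2 at -2.65, TLR3 at -2.19, IFIH1 at -2.13, RIGI at -2.03, USP18 at -1.72 and STAT2 at -1.47 were among them. Over all genes tested 3.6% were lower and 3.42% higher. JAK2, a kinase of the interferon gamma receptor, fell by 0.32. Against scramble, SF3B2 gave 12 of 22 targets higher, and 1 each of the induction genes, transducers and negative regulators, where 0.214% of all genes were called higher. Without A549 scramble replicate 3, 17 targets were higher, in a fit that calls 10.9% of all genes higher. IFITM1 at 1.80, CMPK2 at 1.43, OAS2 at 1.35 and STAT2 at 0.53 rose with SF3B2 against scramble over all libraries. snaR-A against scramble gave 0 called in each list, with a median of 0.60 over the targets.

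In HEK293T, with ligands near 0, targets were called in both directions against scramble. For eGFP against scramble 5 of 21 targets tested were higher and 4 lower, and without HEK293T eGFP replicate 3 these were 3 and 6, with the median going from 1.10 to 0.0312, beside 22.9% of all genes higher and 25.8% lower over all libraries. Of the targets, IFITM1 at -1.22 and IFI44L at -1.15 fell. Of 18 induction genes 3 were higher, among them NFKB1, an NF-kappa-B subunit, at 0.59, and 2 lower, JUN at -0.48 and IRF2 at -0.32. Of 9 negative regulators ISG15 was higher at 1.22, and PTPN11 and PIAS1 were lower at -0.27 each. For SF3B2 against scramble 1 of 18 targets was higher and 5 lower, beside 16.8% and 17.5% of all genes. Without HEK293T SF3B2 replicate 3 these were 1 and 7, beside 18.81% and 20.02% of all genes in that fit. The median of the targets went from -0.0239 to -0.1903. For snaR-A 2 of 20 targets were higher and 4 lower, near the 17.8% and 18.5% of all genes. With replicate 3 of eGFP or of SF3B2 left out, more targets were lower than higher, as with snaR-A over all libraries. SF3B2 against eGFP gave 0 of 21 called, with a median of -0.87 that became 0.25 without HEK293T eGFP replicate 3 and -1.28, with 2 targets lower, without HEK293T SF3B2 replicate 3. Between the lines, 17 of 19 induction genes and 21 of 22 targets tested were higher in A549, beside 42.8% of all genes tested. They included the sensors CGAS at 6.15, RIGI at 5.21 and IFIH1 at 4.45 on the log2 scale.

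The genes whose level followed the ligands most closely were sought by Pearson's r of log2 CPM with IFNL3, the ligand with the highest mean, over the 12 A549 libraries and 17997 genes. They were ISG15 (r = 0.949), RNF122 (0.942), CACNG6 (0.942), TTC39B (0.942) and OASL (0.940). ISG15 and OASL are known to be induced by interferon. The points share their libraries and plasmid groups, so these values are a description.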

How the data were processed

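Poly(A)-enriched, rRNA-depleted stranded libraries were trimmed by the authors with Trim Galore and quantified with Salmon on hg38, and the deposited table holds estimated counts per Ensembl gene without normalization. The study's methods state tool versions for its siRNA libraries; those for these libraries, and the gene annotation, are not given in the sources used here. Of the values, 51.0% were not whole, and all were rounded. Groups followed the labels. Genes were filtered with filterByExpr, scaled by TMM and tested with edgeR's quasi-likelihood test (edgeR 4.0.16, limma 3.58.1, R 4.3.3) in the libraries of each comparison, with Benjamini-Hochberg adjustment over all genes and a threshold of 0.05. Each difference of effects was fitted over the libraries of its plasmids in both lines, and the contrast of the lines over all 24 libraries. DESeq2 1.42.0, edgeR's exactTest and other filters and scalings were alternatives, and tables were made with Python 3.11.15. The code was tested on simulated data. CPM are TMM-scaled over all 24 libraries. The members and lists were chosen with earlier results of these data known. Outside the members, genes of at least 1 CPM on average with the largest changes among called genes of each list, and the genes most like the leading ligand, were named. The listed genes IFNA4, STING1 and IRF9 were not analysed here. IFNAR2 had no promoter entry in the table used.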

Additional observations from a re-analysis of the deposited data

Results flagged for a closer look

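The plasmid effect on a receptor chain differed between A549 and HEK293T, by edgeR's interaction term (A549 effect minus HEK293T effect, log2 scale), in 6 cases. For eGFP against scramble these were IFNAR2 at 0.88, IFNGR2 at 0.47, IL10RB at 0.45, IFNGR1 at 0.35 and IFNAR1 at -0.30. For snaR-A against scramble it was IFNAR2 at 0.52. The IFNGR2 term kept its call in 5 of 19 alternatives and that of IFNAR1 in 13 of 19. With 3 libraries per group, single libraries were not screened as outliers.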

How the results depend on the processing

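Over the alternatives, 1538 values of single genes were recomputed: 1380 kept their direction and their side of the threshold, 71 changed sign but were called in neither fit, 67 lost a call, 16 gained one and 4 called values reversed. The reversed values were those of IFNAR2 and IFNGR2 in A549 against HEK293T, at -0.0042 and -0.31 with library size alone and at -0.11 and -0.13 with scramble libraries only. Of the 10 genes, the number called in A549 for eGFP against scramble went from 4 to 1 with at least 10 counts in every library, by which 7 genes were tested, and to 1 to 4 without single libraries. For SF3B2 against scramble in A549 it went from 0 to 1 with DESeq2, with exactTest or with all 12 libraries of the line, and to 0 to 5 without single libraries, 5 without scramble replicate 3. For SF3B2 against eGFP in A549 it was 5, and 2 to 6 without single libraries. In HEK293T it was 4 for snaR-A against scramble, and 1 to 3 without single libraries, and 4 for SF3B2 against scramble, and 2 to 4. For the difference of effects it was 1 for snaR-A against scramble (1 to 2 without single libraries), 0 for SF3B2 against eGFP (2 with DESeq2), and 5 for eGFP against scramble (2 with library size alone, 3 with no low-count filter, 3 to 5 without single libraries). For A549 against HEK293T it was 10, among them the 4 ligands, which entered this fit only through the A549 libraries, and 42.8% of all genes tested were higher and 43.0% lower. The number called went to 5 with at least 10 counts in every library, where 6 genes and no ligand were tested. It also went to 5 with scramble libraries only, where 7 genes were tested. Beyond fewer genes or libraries tested, the causes were not tested.

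Replicate numbers did not pair the libraries: deviations of same-numbered libraries from their group means correlated at a median of -0.0049 over 18 pairs in A549 and -0.0058 in HEK293T. With a replicate block, 2 genes were called for snaR-A against scramble in HEK293T, 1 for eGFP against scramble in A549, where IFNB1, IFNL2 and IFNL3 lost their calls (edgeR adjusted p = 0.0795, 0.218 and 0.147), and 3 for the difference of the eGFP effects.

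Over all genes, the number called varied by more than 1.5 times in most comparisons: 8229 (5131 to 8514) for snaR-A and 7748 (3892 to 9931) for SF3B2 against scramble and 39 (1 to 2079) for SF3B2 against eGFP in HEK293T, 4 (0 to 53) for snaR-A, 50 (0 to 4825) for SF3B2 and 322 (168 to 532) for eGFP against scramble and 1516 (379 to 3273) for SF3B2 against eGFP in A549. Library size alone moved the median of all genes by -0.16 for SF3B2 against eGFP in HEK293T, and the share of called genes that were higher from 49.0% to 72.9% for snaR-A and from 47.0% to 61.6% for eGFP against scramble in HEK293T. The alternative without HEK293T eGFP replicate 3, HEK293T SF3B2 replicate 3 and A549 scramble replicate 3 together was chosen after seeing the data. Depth limits the ligands: in HEK293T no difference below the level of 3 counts could be seen.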

Other observations

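Other interferon genes were few in reads. The 12 interferon alpha genes in the table, 3 of them at 0 in all 24 libraries, summed to 2, 25, 33 and 30 reads over the HEK293T scramble, snaR-A, eGFP and SF3B2 groups and to 7, 15, 28 and 22 reads over those of A549. IFNL4, the remaining lambda gene, had 25, 24 and 14 reads in the A549 eGFP libraries, 0, 10 and 0 in scramble, 3, 1 and 2 in snaR-A and 2, 3 and 5 in SF3B2. IFNE, an epithelial type I interferon made without infection, had 383 to 585 reads per library in A549 and 5 to 28 in HEK293T and was higher in A549 by 5.37 on the log2 scale (edgeR adjusted p = 1.06e-17).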
